A study of Mus musculus with 10 samples.

Results

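The genes described here are 9 genes of the building and breakdown of liver glycogen: *Ppp1r3b*, *Ppp1r3c*, *Ppp1r3g*, *Gyg*, *Gys2*, *Gbe1*, *Ugp2*, *Pygl* and *Pygb*. They were chosen by name as parts of the enzyme assembly on the glycogen particle and of the exchange of glucose-1-phosphate with it, and all 9 were found among the 24052 gene symbols listed. Their RNA was counted in 10 mouse livers, 5 of wild-type and 5 of Ndrg3 LKO mice, each with its own library. Ndrg3 LKO mice carry floxed *Ndrg3* alleles from which exon 4 is cut out by Cre recombinase under the albumin promoter (Alb-Cre), which acts mainly in hepatocytes, so that other liver cells keep *Ndrg3*. The controls were wild-type littermates, and whether they carried a floxed allele or the Cre transgene is not given. The strain is labelled C57BL/6, with the conditional allele backcrossed to C57BL/6N. The mice were fed ad libitum, and were 8 to 10 weeks old by the methods of the study or 10 to 12 weeks old by a legend. The counts let the expression of the glycogen machinery be compared between livers with and without hepatocyte *Ndrg3*.

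Glycogen is a branched polymer of glucose that hepatocytes build after meals and break down between them. Its synthesis starts on glycogenin, is extended by glycogen synthase from UDP-glucose and is branched by the branching enzyme, while glycogen phosphorylase releases glucose-1-phosphate from the chain ends. Protein phosphatase 1 (PP1) is brought to the particle by targeting subunits, where it dephosphorylates both enzymes, which activates the synthase and inactivates the phosphorylase.

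The gene counts of a library summed to 20872262 to 24747870 in wild-type and 23474693 to 30450057 in Ndrg3 LKO livers. A floor of 3 counts then stands for 0.0985 to 0.144 CPM, the unit in which counts are scaled to a common library size. This floor covers counting error only. Library sizes were scaled by TMM, a trimmed mean of gene ratios between libraries, and all levels below are TMM-normalized CPM unless a level per kilobase is named. *Ndrg3* itself averaged 18.5 ± 2.22 CPM (SD, n = 5) in wild-type and 8.06 ± 0.76 CPM (SD, n = 5) in Ndrg3 LKO livers, with no overlap. Its log2 fold change was -1.20 (SE, the standard error, 0.13; adjusted p = 3.87e-05). This p comes from the quasi-likelihood test of edgeR, adjusted by Benjamini-Hochberg over all genes tested, as does every adjusted p of a single gene below. Leaving out Ndrg3 LKO replicate 5 gave -1.22 (adjusted p = 2.20e-05). Ndrg3 LKO replicate 5 stood apart. On the first principal component, which held 68.7% of the variance, wild-type livers lay between -49.9 and -43, Ndrg3 LKO replicates 1 to 4 between 51.1 and 56.6, and replicate 5 at 14.1. The summed level of 10 hepatocyte markers was 137838 to 179757 CPM in wild-type livers, 36371 to 42596 CPM in Ndrg3 LKO replicates 1 to 4 and 152293 CPM in replicate 5. Wild-type replicate 5 also differed from its group. There 7 skeletal muscle markers summed to 383 CPM, against 0.557 CPM in the lowest wild-type liver and 1.55 to 2.24 CPM in the Ndrg3 LKO livers, and 1 of the 7 reached the filter for testing and did not pass the test. The fold changes of the 9 genes are therefore also given without Ndrg3 LKO replicate 5, and those of the PP1 subunits and of *Gys1* without wild-type replicate 5.

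Of 11208 genes that reached 1 CPM in at least 5 livers, 48.6% had an adjusted p under 0.05, 23.0% lower and 25.6% higher in Ndrg3 LKO livers. All 9 glycogen genes passed this filter. Of these, 5 were lower (*Ppp1r3b*, *Ppp1r3c*, *Gbe1*, *Ugp2* and *Pygl*), 2 were higher (*Gyg* and *Pygb*), and *Gys2* and *Ppp1r3g* did not pass the test. Without Ndrg3 LKO replicate 5, where 55.6% of 11446 genes passed and 27.2% were lower, *Gys2* was also lower, which made 6 lower and 2 higher. The median log2 fold change of the 9 genes was -0.61, beside 0.031 over all genes tested. The groups did not overlap for 4 of the 9 genes (*Ppp1r3b*, *Gbe1* and *Pygl* lower, *Pygb* higher), beside 31.5% of all genes tested. When only the library size was used for scaling, the median of all genes moved to 0.56. On that scale 3 of the 9 genes passed, 2 higher and 1 lower, beside 6831 of all 11208 genes tested. Of all calls, 85.2% were higher on that scale and 52.6% with TMM.

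**Figure D1:**
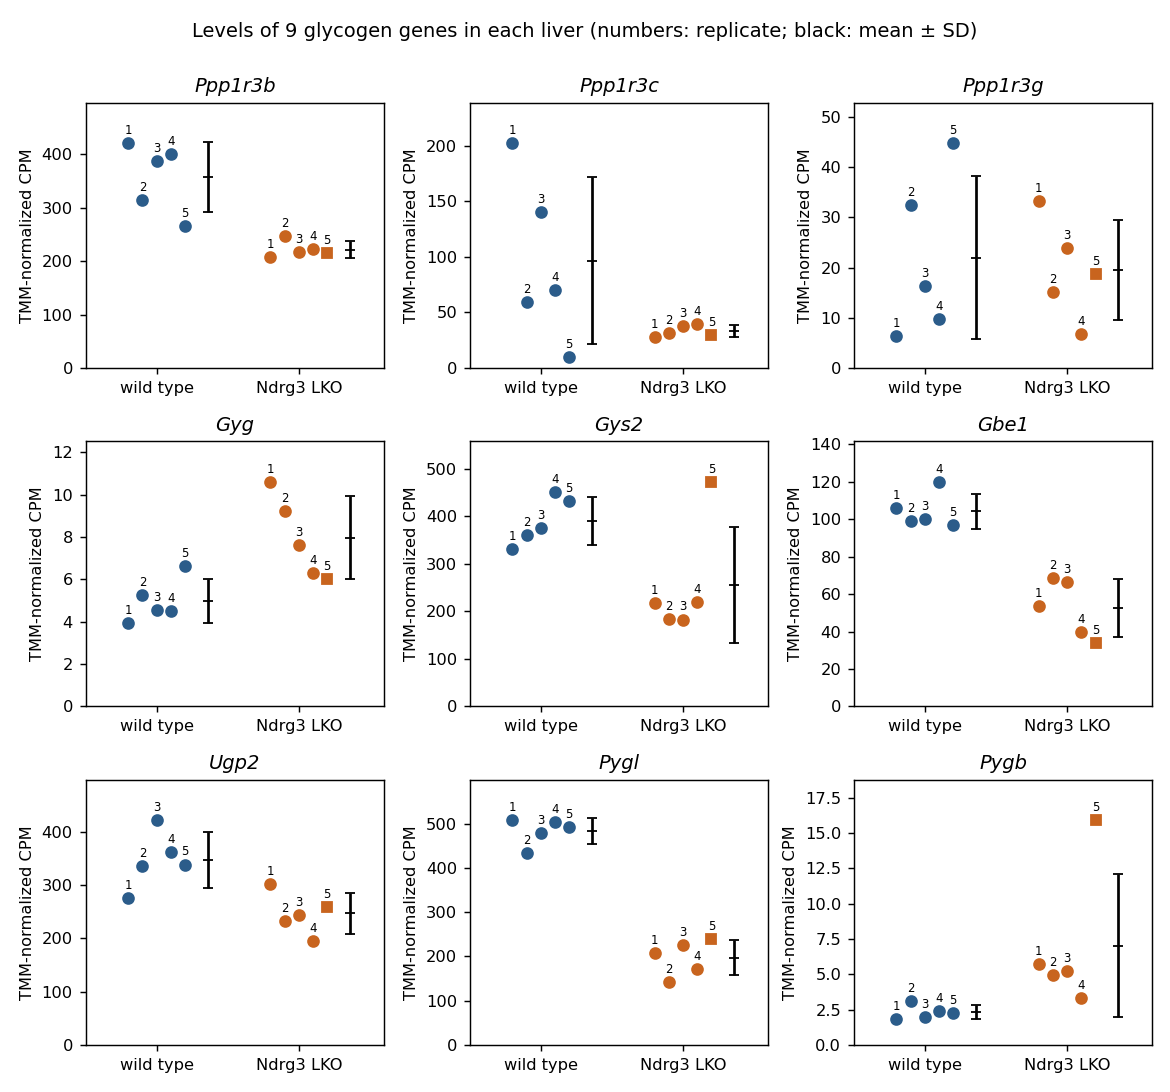
TMM-normalized CPM (linear axis from 0) of the 9 glycogen genes in each of 5 wild-type (blue) and 5 Ndrg3 LKO (orange) livers, with the replicate number above each point, Ndrg3 LKO replicate 5 as a square, and the mean ± SD in black. *Ppp1r3b*, *Gbe1* and *Pygl* lay lower in every Ndrg3 LKO liver and *Pygb* higher, while replicate 5 stood at 473 CPM for *Gys2* and 15.9 CPM for *Pygb*.

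The upstream sequences of *Pygb*, *Ppp1r3c* and *Pygl* are shown because these were the 3 genes with the largest fold changes among those that passed the test. They were taken from RefSeq's promoter table (GRCm38.p6), in which 7 of the 9 genes were found, and placed by an exact match on NCBIM37, the assembly also called mm9 that the counts were made on. Each is written from 5′ to 3′ on the strand of its gene, from 250 bases before the RefSeq start. It ends ahead of any base annotated as untranslated region on the same strand, and other exon bases were not checked. Capitals mark the motifs named after the sequences.
*Ppp1r3c* (chr19:36811144-36811344, minus strand): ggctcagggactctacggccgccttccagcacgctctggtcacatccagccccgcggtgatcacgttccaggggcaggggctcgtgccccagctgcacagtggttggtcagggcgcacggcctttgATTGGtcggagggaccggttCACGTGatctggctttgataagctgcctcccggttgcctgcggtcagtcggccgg
*Pygl* (chr12:71328671-71328920, minus strand): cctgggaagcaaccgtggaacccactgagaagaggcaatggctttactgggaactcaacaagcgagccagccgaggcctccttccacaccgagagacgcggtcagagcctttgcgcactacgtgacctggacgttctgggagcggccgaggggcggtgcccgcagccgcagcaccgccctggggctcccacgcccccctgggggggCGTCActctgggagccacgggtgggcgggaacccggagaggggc
*Pygb* (chr2:150612282-150612470, plus strand): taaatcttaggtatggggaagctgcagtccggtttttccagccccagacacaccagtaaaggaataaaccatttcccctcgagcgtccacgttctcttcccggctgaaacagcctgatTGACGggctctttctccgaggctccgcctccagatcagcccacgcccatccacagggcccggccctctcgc

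The *Ppp1r3c* window held CACGTG, an E-box, from -104 to -99, counted back from the RefSeq start, and was the only member window with it among the 7 genes found. Of 32851 upstream windows of 250 bases, 6.02% held CACGTG on either strand. The same window held CCAAT on the reverse strand, written ATTGG, from -124 to -120, and 33.8% of all windows held CCAAT. The letters TGACG, the core of the cAMP response element, stood at -132 to -128 before *Pygb* and, on the reverse strand as CGTCA, at -44 to -40 before *Pygl*, and were in 17.8% of all windows. The *Ppp1r3g* window, not printed, held them from -40 to -36. The complete element TGACGTCA, found in 1.55% of all windows, and TATAAA, found in 12.4%, were in no window of the 7 genes. Motifs were searched on both strands, and TGACG overlaps TGACGTCA by its construction. A match in these letters is a description and was not tied to binding of any factor. The printed *Pygl* window lies within the annotated gene, since another transcript starts farther upstream.

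Among the PP1 targeting subunits, *Ppp1r3b*, which encodes the main liver form and binds both glycogen and phosphorylase, fell. In NCBIM37 it spans, on the plus strand of chromosome 8, 36438795 to 36451178. Its levels in wild-type replicates 1 to 5 were 421, 315, 387, 401 and 266 CPM. In Ndrg3 LKO replicates 1 to 5 they were 207, 247, 218, 222 and 215 CPM. Every Ndrg3 LKO liver, replicate 5 included, lay below every wild-type liver, and the Ndrg3 LKO livers lay closer together. The means were 358 ± 65 and 222 ± 15 CPM (SD, n = 5 each), and the log2 fold change was -0.69 (SE 0.15, adjusted p = 0.00304). It was again -0.69 (adjusted p = 0.00269) without Ndrg3 LKO replicate 5, and without wild-type replicate 5, the lowest of its group, it was -0.80 (adjusted p = 0.00166). With scaling by library size alone it was -0.16 and with quantile normalization -0.40, and neither passed the test.

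*Ppp1r3c*, also called PTG, encodes a targeting subunit that gathers PP1, glycogen synthase and phosphorylase on the particle. Its locus is 36806227 to 36811143 on the minus strand of chromosome 19. Wild-type replicates 1 to 5 held 202, 59.6, 140, 69.8 and 9.82 CPM. Ndrg3 LKO replicates 1 to 5 held 28, 31, 37.7, 39.6 and 29.7 CPM. The wild-type livers spread over a 20.56-fold range, from the highest of the 10 livers to the lowest, and the Ndrg3 LKO livers over a 1.42-fold range within it. Of all genes tested, 99.9% varied less among wild-type livers, by the SD of log2(CPM + 1). The means were 96.2 ± 75.1 and 33.2 ± 5.14 CPM (SD, n = 5 each), and the log2 fold change was -1.53 (SE 0.54, adjusted p = 0.0343). That call depended on single livers, and the part of the muscle transcripts in wild-type replicate 5 was not tested. Without wild-type replicate 5, the liver with muscle transcripts and the lowest *Ppp1r3c*, the log2 fold change was -1.84 (adjusted p = 0.00145), without Ndrg3 LKO replicate 5 it was -1.51 (adjusted p = 0.046), and without wild-type replicate 1 it was -1.09 (adjusted p = 0.104). It was also no longer called without wild-type replicate 3 or without any of Ndrg3 LKO replicates 1 to 4, and across all 17 fits, the alternatives included, *Ppp1r3c* passed in 8.

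*Ppp1r3g* encodes a targeting subunit known to respond to fasting and feeding in mouse liver. The gene spans 36050708 to 36062257 on the plus strand of chromosome 13. Its levels were 6.45, 32.5, 16.4, 9.78 and 44.8 CPM in wild-type replicates 1 to 5. They were 33.3, 15.1, 23.9, 6.72 and 18.7 CPM in Ndrg3 LKO replicates 1 to 5. Each group covered nearly the same range, 6.93-fold in wild-type and 4.95-fold in Ndrg3 LKO livers, and the groups overlapped throughout. The means were 22 ± 16.2 and 19.6 ± 9.91 CPM (SD, n = 5 each), and the log2 fold change of -0.17 (SE 0.51, adjusted p = 0.805) did not pass in any of the 17 fits. It was -0.16 (adjusted p = 0.817) without Ndrg3 LKO replicate 5. Its sign was positive in 5 of the alternatives, with library-size scaling (0.37), with quantile normalization (0.048), and without wild-type replicate 2 (0.00071), wild-type replicate 5 (0.25) or Ndrg3 LKO replicate 4 (0.054). At this spread a small difference between the groups could be missed.

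In wild-type livers the levels of *Ppp1r3c* and *Ppp1r3g* ran in nearly opposite orders, and in Ndrg3 LKO livers their extremes were opposite too. Wild-type replicate 1 had the highest *Ppp1r3c* (202 CPM) and the lowest *Ppp1r3g* (6.45 CPM), and wild-type replicate 5 the lowest *Ppp1r3c* (9.82 CPM) and the highest *Ppp1r3g* (44.8 CPM). Ndrg3 LKO replicate 4 had the highest *Ppp1r3c* (39.6 CPM) and the lowest *Ppp1r3g* (6.72 CPM) of its group. Ndrg3 LKO replicate 1 had the lowest *Ppp1r3c* (28 CPM) and the highest *Ppp1r3g* (33.3 CPM). Among wild-type livers *Ppp1r3c* also followed *Ppp1r3b* in its extremes, since wild-type replicate 1 was highest and wild-type replicate 5 lowest for both. With 5 livers in each group no correlation was computed. Set beside each other per kilobase of exon, *Ppp1r3b* made up 56.2% to 75.3% of the summed level of the 7 targeting subunit genes in wild-type livers and 67.2% to 75.5% in Ndrg3 LKO livers. The share of *Ppp1r3c* was 4.22% to 41.7% in wild-type livers (median 20.3%) and 14.0% to 20.7% in Ndrg3 LKO livers (median 15.6%), and that of *Ppp1r3g* 1.44% to 20.8% (median 4.31%) and 3.78% to 18.0% (median 10.6%). The shares of the groups overlapped for all 3 genes.

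**Figure D2:**
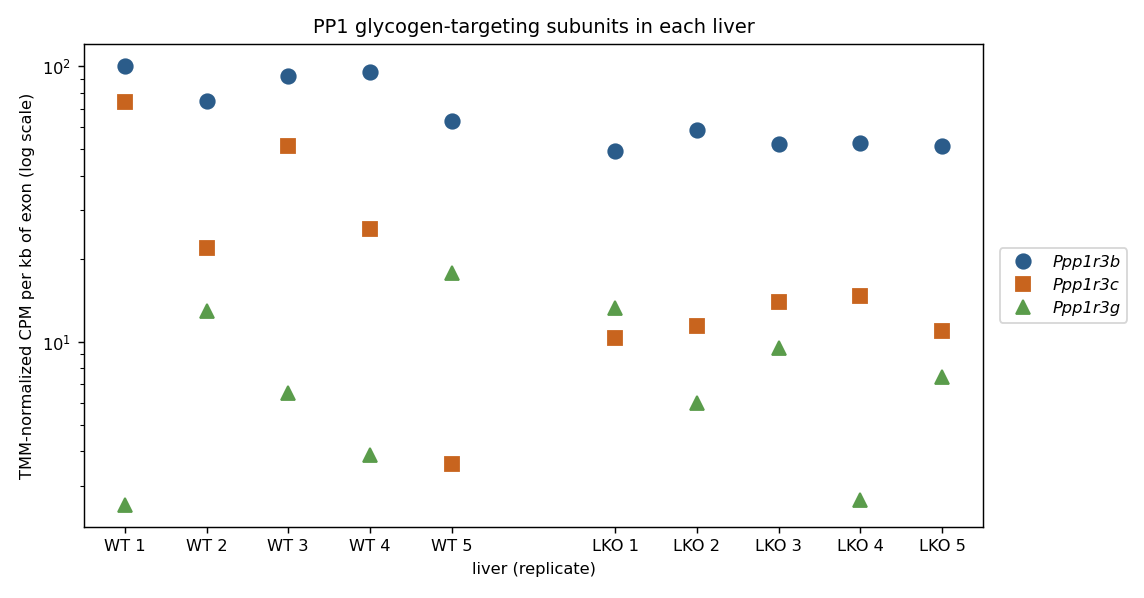
Level of 3 PP1 targeting subunit genes in each liver as TMM-normalized CPM per kilobase of annotated exon (log scale), wild-type livers to the left and Ndrg3 LKO livers to the right. *Ppp1r3b* (circles) was the highest of the 3 in every liver, and in wild-type replicates 1 and 5 *Ppp1r3c* (squares) and *Ppp1r3g* (triangles) stood at opposite ends of their ranges. Within the Ndrg3 LKO group the same held for replicates 1 and 4.

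Of the genes of the synthesis line, *Gbe1* and *Ugp2* fell, *Gyg* rose, and *Gys2* was lower in Ndrg3 LKO replicates 1 to 4 and not in replicate 5. *Gyg* encodes glycogenin, the protein primer on which each glycogen particle starts. On the minus strand of chromosome 3, it spans 20021970 to 20055216. Its levels were low, at 3.93, 5.27, 4.57, 4.5 and 6.61 CPM in wild-type replicates 1 to 5 and 10.6, 9.23, 7.64, 6.3 and 5.99 CPM in Ndrg3 LKO replicates 1 to 5. Ndrg3 LKO replicates 4 and 5 lay below wild-type replicate 5, and the other 3 Ndrg3 LKO livers above all wild-type livers. The means were 4.98 ± 1.03 and 7.95 ± 1.96 CPM (SD, n = 5 each), and the log2 fold change was 0.68 (SE 0.20, adjusted p = 0.0166). It was 0.75 (adjusted p = 0.00724) without Ndrg3 LKO replicate 5, and *Gyg* passed in 16 of the 17 fits.

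*Gys2* encodes the liver form of glycogen synthase, which adds glucose from UDP-glucose to the growing chain. Its locus on chromosome 6, minus strand, is 142371133 to 142421629. Wild-type replicates 1 to 5 held 331, 361, 376, 452 and 433 CPM. Ndrg3 LKO replicates 1 to 5 held 217, 184, 183, 220 and 473 CPM. Replicates 1 to 4 lay below every wild-type liver and replicate 5 above every one. The means were 391 ± 50.6 and 255 ± 123 CPM (SD, n = 5 each), and the log2 fold change of -0.61 (SE 0.26, adjusted p = 0.0662) did not pass the test. Without Ndrg3 LKO replicate 5 the mean was 201 ± 20.5 CPM (SD, n = 4) and the log2 fold change -0.97 (SE 0.14, adjusted p = 1.36e-04). With all 10 livers DESeq2 called *Gys2* lower (-0.62, adjusted p = 0.0365), so that the call depended on replicate 5 and on the method. In simulated counts DESeq2 recovered 169 of 200 changed genes with 35 false calls, and edgeR 155 with 11. No simulated liver stood apart, so these numbers cannot decide the call of *Gys2*. In Ndrg3 LKO replicate 5, 5 of the 10 hepatocyte markers lay below the wild-type range, 4 within it and 1 above it. The part of this in the *Gys2* level was not tested.

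*Gbe1* encodes the branching enzyme, which moves short chains to new branch points, and its loss in humans causes a glycogen storage disease. The gene spans 70314194 to 70569961 on the plus strand of chromosome 16, and 4930423O20Rik is annotated on the opposite strand within the span. Its levels were 106, 99, 100, 120 and 96.7 CPM in wild-type replicates 1 to 5, and 53.4, 68.6, 66.3, 40 and 33.9 CPM in Ndrg3 LKO replicates 1 to 5. The groups did not overlap, and replicate 5 was the lowest of the Ndrg3 LKO livers. The means were 104 ± 9.3 and 52.4 ± 15.4 CPM (SD, n = 5 each), and the log2 fold change was -0.99 (SE 0.19, adjusted p = 0.00145). It was -0.88 (adjusted p = 7.16e-04) without Ndrg3 LKO replicate 5, and -0.43 (adjusted p = 0.16) with library-size scaling.

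*Ugp2* encodes UDP-glucose pyrophosphorylase, which turns glucose-1-phosphate and UTP into UDP-glucose. On the minus strand of chromosome 11, it spans 21221141 to 21271204, with Mir1933 annotated within it on the same strand and Gm12043 on the other. Its levels were 276, 337, 422, 362 and 339 CPM in wild-type replicates 1 to 5, and 302, 233, 244, 196 and 260 CPM in Ndrg3 LKO replicates 1 to 5. The groups overlapped through wild-type replicate 1 and Ndrg3 LKO replicate 1. The means were 347 ± 52.6 and 247 ± 38.7 CPM (SD, n = 5 each), and the log2 fold change was -0.49 (SE 0.16, adjusted p = 0.0224), or 0.024 with library-size scaling. It was -0.52 (adjusted p = 0.0168) without Ndrg3 LKO replicate 5, and the call was lost without Ndrg3 LKO replicate 4 (-0.42, adjusted p = 0.057). *Ugp2* was the only one of the 5 genes called lower whose direction turned with library-size scaling.

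The glycogen phosphorylases moved in opposite directions. *Pygl* encodes the liver form, which releases glucose-1-phosphate from glycogen. Its locus on chromosome 12, minus strand, is 71291798 to 71332475, and F730035M05Rik is annotated on the opposite strand across part of it. Wild-type replicates 1 to 5 held 508, 435, 479, 505 and 493 CPM. Ndrg3 LKO replicates 1 to 5 held 207, 143, 227, 171 and 240 CPM. The lowest wild-type liver lay far above the highest Ndrg3 LKO liver, and replicate 5 was low along with its group. The means were 484 ± 29.8 and 198 ± 40.1 CPM (SD, n = 5 each), and the log2 fold change was -1.29 (SE 0.16, adjusted p = 1.01e-04), or -1.38 (adjusted p = 2.15e-05) without Ndrg3 LKO replicate 5. *Pygl* passed in all 17 fits, with adjusted p between 4.63e-15 and 0.00122.

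*Pygb* encodes the brain form of the phosphorylase, which adult hepatocytes hold little of. The gene spans 150612471 to 150657494 on the plus strand of chromosome 2. Its counts were 32, 64, 36, 52 and 38 in wild-type replicates 1 to 5, or 1.8, 3.13, 2, 2.39 and 2.26 CPM. They were 200, 205, 203, 117 and 337 in Ndrg3 LKO replicates 1 to 5, or 5.75, 4.97, 5.22, 3.33 and 15.9 CPM. Every Ndrg3 LKO liver lay above every wild-type liver, and replicate 5 far above the rest of its group. The means were 2.32 ± 0.508 and 7.03 ± 5.03 CPM (SD, n = 5 each), and the log2 fold change was 1.59 (SE 0.39, adjusted p = 0.0056). Without Ndrg3 LKO replicate 5 the mean was 4.82 ± 1.04 CPM (SD, n = 4) and the log2 fold change 1.04 (adjusted p = 0.00204). *Pygb* also passed in all 17 fits, with adjusted p between 1.68e-04 and 0.0203.

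**Figure D3:**
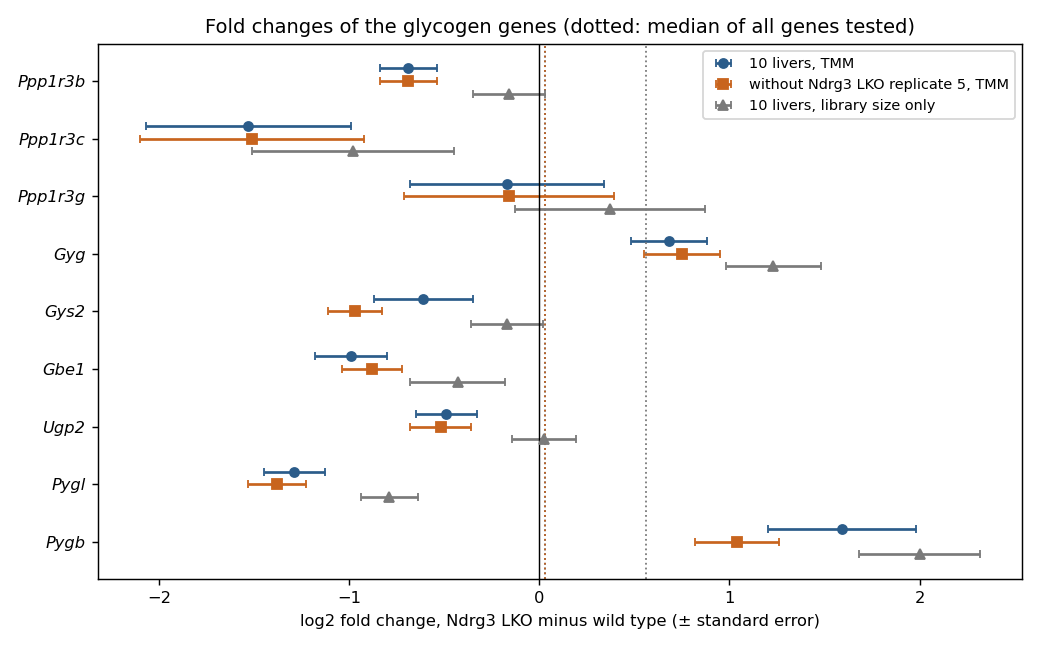
Log2 fold change of each gene, Ndrg3 LKO minus wild type, with its standard error, in all 10 livers with TMM (circles), without Ndrg3 LKO replicate 5 (squares) and with scaling by library size alone (triangles), and the median of all genes tested in each fit as a dotted line. *Pygl* was called lower and *Gyg* and *Pygb* higher in all 3 fits. *Ppp1r3b*, *Ppp1r3c*, *Gys2* and *Gbe1* also lay below 0 in all 3, but none of them passed with library-size scaling. *Ugp2* stood at -0.49 with TMM and 0.024 with library-size scaling, whose median lay at 0.56, and *Ppp1r3g* at -0.17 and 0.37.

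In bulk tissue, fewer cells of a type and less RNA per cell cannot be told apart. Of the 10 hepatocyte markers, 8 were lower in Ndrg3 LKO livers and none higher, with a median log2 fold change of -1.43. All 9 Kupffer cell and macrophage markers tested, 7 of 8 endothelial markers and 6 of 9 stellate cell and fibroblast markers were higher, with medians of 1.32, 1.21 and 1.24. Their summed levels were 92.7 to 230, 65.8 to 91.2 and 116 to 182 CPM in wild-type livers, and 205 to 644, 141 to 180 and 250 to 328 CPM in Ndrg3 LKO replicates 1 to 4. Of 5 cholangiocyte markers tested, 1 was higher and 1 lower, and the single tested gene of the lymphocyte and neutrophil list was higher. Of the 6 brain and nerve markers, 1 was tested and it was lower, and *Snap25* had 0 counts in every liver. The part of these markers in the levels of the 9 genes was not tested. In Ndrg3 LKO replicate 5 the hepatocyte sum of 152293 CPM was mostly *Alb* (107850 CPM). There *Alb*, *Ttr*, *Tat* and *Cps1* lay within the wild-type range, *Serpina1a* above it, and *Hnf4a*, *Fgb*, *Apob*, *Apoa1* and *Tdo2* below it. The Kupffer cell, endothelial and stellate cell markers summed to 264, 152 and 263 CPM in that liver, above every wild-type liver. Of the 9 genes there, *Ppp1r3b*, *Gbe1*, *Ugp2* and *Pygl*, at 215, 33.9, 260 and 240 CPM, lay below every wild-type liver. *Gys2* and *Pygb*, at 473 and 15.9 CPM, lay above every wild-type liver. *Ppp1r3c*, *Ppp1r3g* and *Gyg*, at 29.7, 18.7 and 5.99 CPM, lay within the wild-type range.

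Ratios of genes within a liver do not depend on how libraries are scaled, and 9 of them were compared between the groups by a 2-sided exact permutation test over livers, with 0.5 counts added to each gene and Benjamini-Hochberg adjustment over the 9. The smallest p that 5 livers against 5 allow is 0.00794. The log2 ratio of *Pygb* to *Pygl* was -8.12, -7.11, -7.88, -7.71 and -7.75 in wild-type replicates 1 to 5, and -5.17, -4.84, -5.44, -5.68 and -3.91 in Ndrg3 LKO replicates 1 to 5. The groups did not overlap, with means of -7.71 ± 0.38 and -5.01 ± 0.69 (SD, n = 5 each), and the difference was 2.71 (exact permutation p = 0.00794, adjusted p = 0.0357). It was 2.43, again with no overlap, without Ndrg3 LKO replicate 5. *Pygb* lay higher and *Pygl* lower in every Ndrg3 LKO liver. The separation of their ratio and its exact p follow from that and add no separate evidence. Per kilobase of exon, *Pygb* made up 0.28% to 0.569% of the summed phosphorylase level in wild-type livers (median 0.353%) and 1.52% to 5.0% in Ndrg3 LKO livers (median 2.15%). *Pygl* thus held most of the summed level in every liver, at 96.6% to 99.6% in wild-type and 94.7% to 97.8% in Ndrg3 LKO livers. The 96.6% was that of wild-type replicate 5, and the other wild-type livers had 99.3% to 99.6%. The muscle form *Pygm* was below the filter, with 223 counts, or 13.3 CPM, in wild-type replicate 5. The other wild-type livers held 5 to 7 counts (0.23 to 0.342 CPM) and the Ndrg3 LKO livers 13 to 46 (0.582 to 1.32 CPM).

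The synthase isozymes also differed in their ratio. The log2 ratio of *Gys1*, the form of muscle and most other tissues, to *Gys2* had means of -7.56 ± 0.35 in wild-type and -6.11 ± 0.74 in Ndrg3 LKO livers (SD, n = 5 each), with no overlap. The difference was 1.45 (exact permutation p = 0.00794, adjusted p = 0.0357), and 1.65 without Ndrg3 LKO replicate 5. *Gys1* alone held 1.63, 1.47, 1.61, 2.8 and 3.15 CPM in wild-type and 3.42, 4.24, 4.43, 1.88 and 3.96 CPM in Ndrg3 LKO replicates 1 to 5, and its log2 fold change of 0.75 (adjusted p = 0.0523) did not pass. Without wild-type replicate 5, the liver with muscle transcripts, it was 0.91 (adjusted p = 0.0319). Without Ndrg3 LKO replicate 5 it was 0.70 (adjusted p = 0.0755). The gene passed in 5 of the 17 fits, and the part of the muscle transcripts in its level was not tested. *Gys1* made up 0.225% to 0.403% of the summed synthase level per kilobase in wild-type livers and 0.463% to 1.32% in Ndrg3 LKO livers.

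The other 7 ratios had an adjusted p of at least 0.0714. The ratio of *Pygl* to *Gys2*, breakdown against synthesis, was lower by a log2 difference of -0.61 in Ndrg3 LKO livers (exact permutation p = 0.0317, adjusted p = 0.0714), and Ndrg3 LKO replicate 3, at 0.31, lay within the wild-type range of 0.16 to 0.62. The ratio of *Gyg* to *Gys2* differed by 1.37 (exact permutation p = 0.0238, adjusted p = 0.0714), and by 1.71 without Ndrg3 LKO replicate 5 (exact permutation p = 0.0159), where the groups did not overlap. The differences of *Gbe1* and *Ugp2* to *Gys2* were -0.34 and 0.21 (exact permutation p = 0.603 and 0.444). Leaving out Ndrg3 LKO replicate 5 moved them to 0.056 and 0.44 (exact permutation p = 0.81 and 0.0476, adjusted p = 0.81 and 0.107). The ratio of *Ppp1r3b* to *Gys2* differed by 0.033 (exact permutation p = 0.905), with an SD of 0.38 in wild-type and 0.61 in Ndrg3 LKO livers. Those of *Ppp1r3b* to *Ppp1r3c* and of *Ppp1r3g* to *Ppp1r3b* differed by 0.31 and 0.67 (exact permutation p = 0.683 and 0.381).

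**Figure D4:**
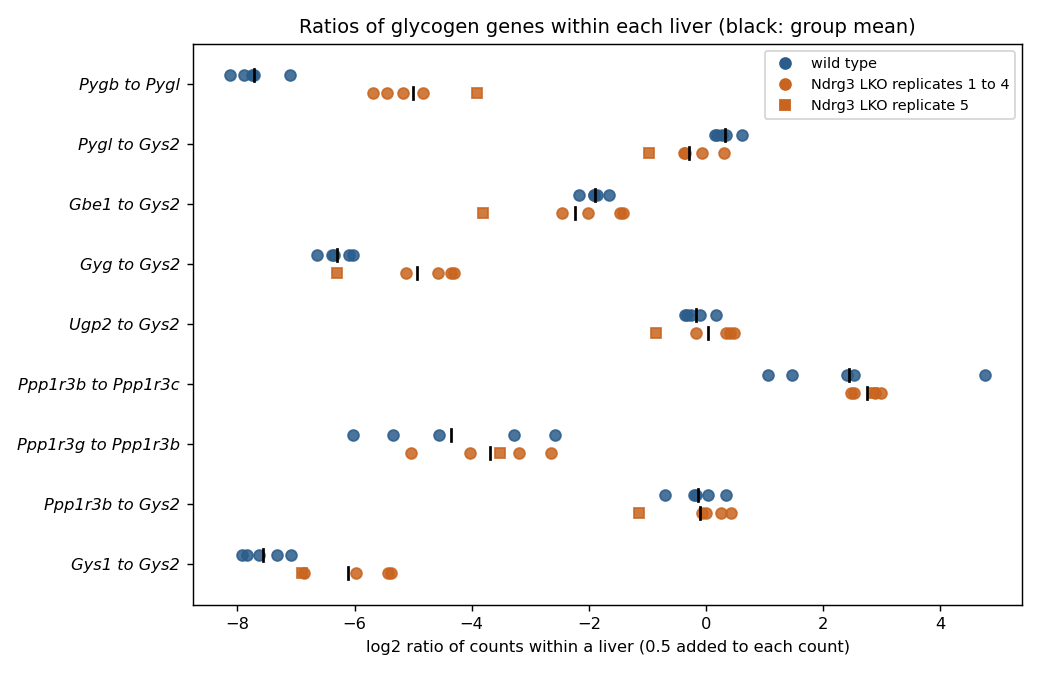
Log2 ratio of counts of 2 genes within each liver (0.5 added to each count), with wild-type livers in blue, Ndrg3 LKO livers in orange, Ndrg3 LKO replicate 5 as a square and group means in black. The groups separated for *Pygb* to *Pygl* (difference of means 2.71) and *Gys1* to *Gys2* (1.45) and overlapped for the other 7 ratios, of which *Gyg* to *Gys2* overlapped only through replicate 5.

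Between genes, levels were compared per kilobase of annotated exon. In wild-type livers the order was *Gys2* (147 ± 19), *Pygl* (126 ± 7.79), *Ugp2* (113 ± 17.1), *Ppp1r3b* (85.1 ± 15.5), *Ppp1r3c* (35.4 ± 27.6), *Gbe1* (19.5 ± 1.74), *Ppp1r3g* (8.73 ± 6.44), *Gyg* (2.11 ± 0.437) and *Pygb* (0.481 ± 0.106), in CPM per kilobase (SD, n = 5 each). The ranges of neighbours from *Gys2* down to *Gbe1* overlapped in turn, although *Ppp1r3b* was higher than *Ppp1r3c* in each of the 10 livers. The other neighbours in this stretch were in this order in 4 of 5 wild-type livers, and the range of *Ppp1r3g* (2.56 to 17.8) lay below that of *Gbe1* (18.1 to 22.4). In Ndrg3 LKO livers *Gys2* (96.2 ± 46.2) and *Ugp2* (80.5 ± 12.6) were highest, in the opposite order without replicate 5 (75.7 ± 7.7 and 79.5 ± 14.3; SD, n = 4), and *Ppp1r3b* (52.8 ± 3.56) and *Pygl* (51.6 ± 10.5) lay at nearly the same level per kilobase. *Pygl* had the second highest mean in wild-type and the fourth in Ndrg3 LKO livers.

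Across the 10 livers, the genes whose log2 levels ran most like a glycogen gene were named by Pearson's r as a description, since the livers share their groups. Those most like *Pygl* were *Rnf135* (r = 0.989), *Cyp2c50* (r = 0.988) and *Fam47e* (r = 0.988), and 202 genes reached an r of 0.95 with it. Those most like *Ppp1r3b* were *Ahcyl1* (r = 0.979), *Rbbp6* (r = 0.976) and *Snx33* (r = 0.972). *Pygb* ran most like *Rgs2* (r = 0.974), *Tspan15* (r = 0.970) and *Slc22a29* (r = 0.965), and 5 genes reached 0.95 with it.

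Of the 33 other genes of glycogen metabolism that were listed, 27 were tested, of which 9 were higher, 6 lower and 12 did not pass, beside 25.6% higher and 23.0% lower among all 11208 genes, with a median log2 fold change of 0.22. Without Ndrg3 LKO replicate 5, 28 were tested and 11 were higher and 7 lower, beside 3252 higher and 3108 lower of all 11446 genes. With library-size scaling 16 were higher and 2 lower, where 6831 of all 11208 genes passed. That is 88.9% of the calls higher beside 85.2% over all genes. Among the catalytic subunits of PP1, *Ppp1cb* was higher (0.42, adjusted p = 0.0399) and passed in 7 of the 17 fits, *Ppp1cc* was lower (-0.71, adjusted p = 2.73e-04) and passed in 16, and *Ppp1ca* did not pass (0.26, adjusted p = 0.0749; 0.0323 without Ndrg3 LKO replicate 5). The targeting subunit *Ppp1r3e* did not pass (-0.55, adjusted p = 0.31). *Ppp1r3a*, *Ppp1r3d* and *Ppp1r3f* were below the filter. Among the 6 kinase genes tested, 1 was lower, the catalytic subunit *Phkg2* of phosphorylase kinase (-0.56, adjusted p = 0.0121), while the regulatory subunits *Phka2* and *Phkb* did not pass (-0.099 and -0.057, adjusted p = 0.623 and 0.66; *Phkb* turned to 0.47 with library-size scaling). In the list of lysosomal breakdown and quality control, 2 of 3 tested were higher, among them *Nhlrc1*, which encodes malin (1.31, adjusted p = 0.00248).

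Of the 13 genes that handle glucose-1-phosphate, glucose-6-phosphate and UDP-glucose, 6 were higher and 4 lower, again beside 25.6% and 23.0% of all genes. *Slc37a4*, which carries glucose-6-phosphate into the endoplasmic reticulum, held 351, 362, 374, 335 and 384 CPM in wild-type and 91, 60.4, 140, 96.3 and 234 CPM in Ndrg3 LKO replicates 1 to 5. The groups did not overlap, and replicate 5 was nearest to the wild-type livers. Its log2 fold change was -1.54 (adjusted p = 0.00159), and -1.91 (adjusted p = 1.87e-05) without replicate 5. *G6pc*, the glucose-6-phosphatase that acts behind it, did not pass (-0.19, adjusted p = 0.429), and its relative *G6pc3* was higher (1.45, adjusted p = 3.58e-04). The gene listed as *Pgm2*, which in the older mouse naming is the main phosphoglucomutase that interconverts glucose-1-phosphate and glucose-6-phosphate, averaged 255 ± 18.2 and 191 ± 29.2 CPM (SD, n = 5 each), with a log2 fold change of -0.42 (adjusted p = 0.0256) that turned to 0.096 with library-size scaling. *Pgm1* in that naming averaged 2.74 and 8.55 CPM and was higher in every Ndrg3 LKO liver (1.64, adjusted p = 3.97e-05). *Pgm2l1*, which makes glucose-1,6-bisphosphate, was lower (-1.31, adjusted p = 7.08e-04), and *Galk1*, galactokinase, was higher (1.02, adjusted p = 8.29e-04). Leaving out Ndrg3 LKO replicate 5 gave 1.58 for *G6pc3*, -0.50 for *Pgm2*, 1.70 for *Pgm1*, -1.50 for *Pgm2l1* and 1.08 for *Galk1*, all called.

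**Figure D5:**
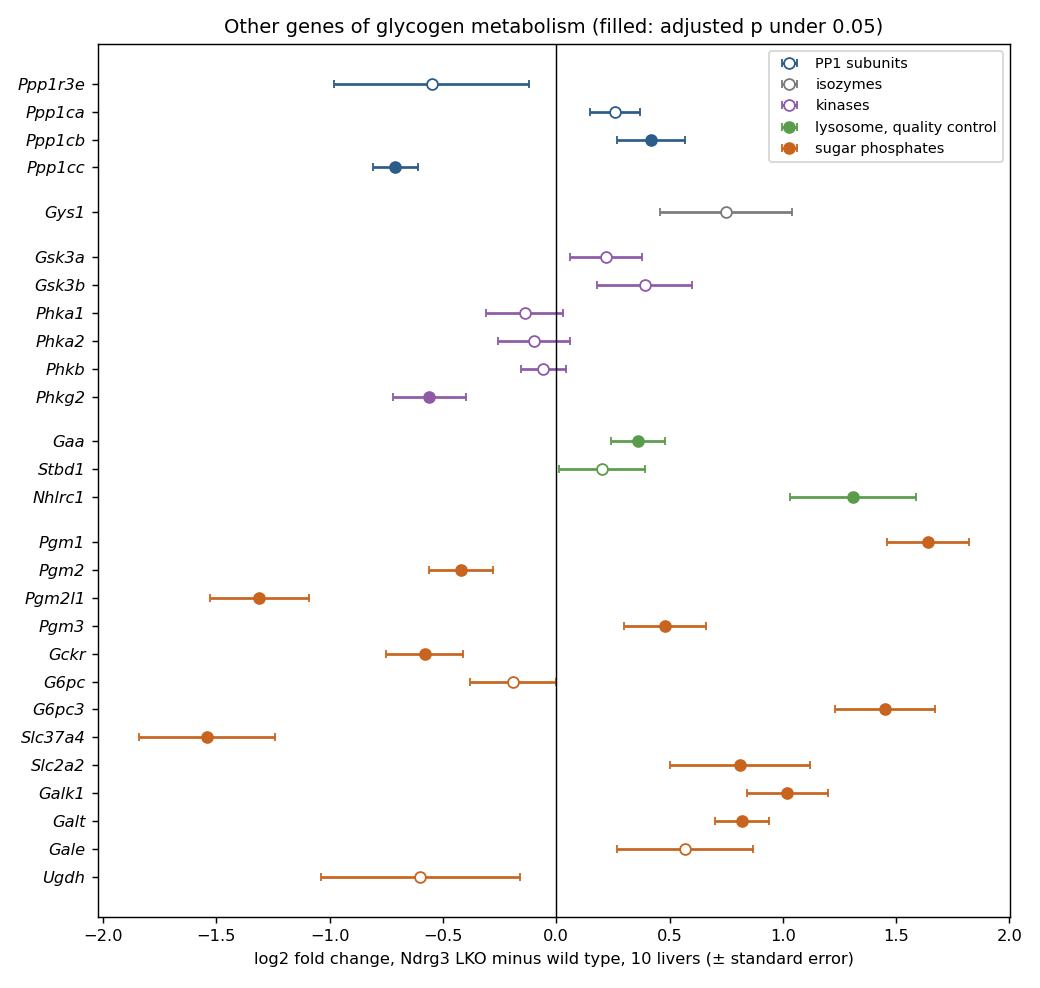
Log2 fold change, Ndrg3 LKO minus wild type in 10 livers with TMM, and its standard error for the 27 other glycogen genes tested, coloured by list and filled where the adjusted p was under 0.05. In all, 9 genes were higher and 6 lower, from *Pgm1* at 1.64 to *Slc37a4* at -1.54, and *Pgm2* (-0.42) and *Phkb* (-0.057) were positive with library-size scaling (0.096 and 0.47).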

How the data were processed

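Liver RNA of quality above the limit set by the study was made into stranded mRNA libraries, sequenced as paired ends and mapped to mm9 with STAR. The submitters' processing notes name Trim Galore 0.6.4, STAR 2.7.3a and Cufflinks 2.2.1. The annotation and strand setting of the counting are not given in the sources used here, so genes that overlap another gene are uncertain. The deposited values are counts of reads per gene symbol that the authors did not normalize, although the files are called CPM. They are whole numbers whose totals differ between livers.

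Genes that reached 1 CPM in 5 or more livers (4 where a liver was left out) were tested with edgeR 4.0.16 (quasi-likelihood test, TMM, Benjamini-Hochberg, threshold 0.05) in R 4.3.3, without a covariate. The standard error was obtained from the log2 fold change and its F statistic. Ratios used exact permutation tests in scipy 1.17.1. Alternatives were DESeq2 1.42.0, limma 3.58.1 on quantile-normalized log2(CPM + 1), median-of-ratios and library-size scaling, no filter, the replicate number as a block, and each liver left out. In simulated counts of 11085 genes with 200 changed, edgeR recovered 155 with 11 false calls. It recovered 53 of 91 2-fold changes and 102 of 109 4-fold changes. Far fewer genes changed there than passed in the livers, and no simulated liver stood apart. The simulation therefore did not test the scaling or the weight of single livers. Exon lengths and positions came from GENCODE on NCBIM37.

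The members and gene lists were chosen with earlier results of these data known. All 9 members are named, and others are partners or isozymes of a member or had an adjusted p under 0.05 and a log2 fold change of at least 1 in size. *Ppp1ca*, *Ppp1cb* and *Ppp1cc* were named after their values were seen. No pair of livers in a group was identical. Livers with the same replicate number did not vary together. Some genes are not reported here. The labels do not tie livers to litters or cages.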

Additional observations from a re-analysis of the deposited data

Results flagged for a closer look

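In 36 groups of 5 livers, each the wild-type or Ndrg3 LKO livers for a gene or ratio, the highest or lowest liver was compared with the range of its group by Dixon's criterion, which chance meets in about 5% of groups. It was met in 2 groups, both by Ndrg3 LKO replicate 5. *Gys2* was 473 CPM in that liver and 183 to 220 CPM in the other 4 Ndrg3 LKO livers, and *Pygb* was 15.9 CPM there and 3.33 to 5.75 CPM in the others.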

How the results depend on the processing

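*Pygl* and *Pygb* kept their direction and their call in all 16 alternatives, *Ppp1r3b* in 14, *Gyg* and *Gbe1* in 15, *Ugp2* in 12 and *Ppp1r3c* in 7; the cause of the changes below was not tested unless given. With library-size scaling 3 of the 9 genes passed, beside 6831 of all 11208 genes tested. With limma on quantile-normalized values 4 passed, beside 5504 of 11208. The log2 fold changes were then -0.16 and -0.40 for *Ppp1r3b*, -0.98 and -0.88 for *Ppp1r3c*, 0.37 and 0.048 for *Ppp1r3g*, and 0.024 and -0.20 for *Ugp2*, and with library-size scaling -0.43 for *Gbe1*, 0.096 for *Pgm2* and 0.47 for *Phkb* (0.0096 with limma). Library-size scaling moved the median of all genes to 0.56, and relative to it *Ppp1r3b* stood at -0.72, *Gbe1* at -0.99 and *Ugp2* at -0.53. DESeq2 called *Gys2* (-0.62, adjusted p = 0.0365). Leaving out 1 liver gave 5 to 8 of the 9 genes, 10 to 18 other glycogen genes and 4703 to 6360 genes in all, and log2 fold changes of -1.84 to -1.09 for *Ppp1r3c*, -0.44 to 0.25 for *Ppp1r3g*, -0.97 to -0.51 for *Gys2* and -0.58 to -0.42 for *Ugp2*.

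Same-numbered livers had correlations of deviations from -0.357 to 0.0363 and none matched its own number best. This check cannot show whether livers shared a litter or cage, which the labels do not give. The main test used no pairing by replicate number. Blocking on that number left 4412 genes in place of 5443, 5 of the 9 genes in place of 7, and 9 other glycogen genes in place of 15. With the block the log2 fold change was -1.06 for *Ppp1r3c*, 0.67 for *Gyg* and -0.49 for *Ugp2*, whose calls were lost (adjusted p = 0.158, 0.057 and 0.0755), and -0.71 for *Gys2*, which was called (adjusted p = 0.0324). The paired sign-flip test left the ratio differences at 2.71 for *Pygb* to *Pygl* and 1.45 for *Gys1* to *Gys2*, with a smallest possible p of 0.0625.

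Without 1 liver, the differences of log2 ratios ranged from 2.43 to 2.87 for *Pygb* to *Pygl* and from 1.27 to 1.65 for *Gys1* to *Gys2*, where fewer splits leave a larger smallest p. They ranged from -0.76 to -0.44 for *Pygl* to *Gys2*, 1.21 to 1.71 for *Gyg* to *Gys2*, -0.54 to 0.056 for *Gbe1* to *Gys2*, -0.038 to 0.89 for *Ppp1r3b* to *Ppp1r3c*, -0.11 to 0.29 for *Ppp1r3b* to *Gys2*, 0.10 to 0.44 for *Ugp2* to *Gys2* and 0.26 to 1.12 for *Ppp1r3g* to *Ppp1r3b*. *Pygb*, *Gyg* and *Gys1* rest on few reads, *Pygb* on 32 to 337 per liver, and spread between livers limits *Ppp1r3g*.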
